A study of Homo sapiens with 4 samples.

Results

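The 52 genes described here encode proteins that drive cells into and through mitosis: cyclins and mitotic kinases, kinetochore and checkpoint proteins, spindle motors and microtubule-associated proteins, cytokinesis factors, and proteins of chromosome structure. They were taken by symbol from a list of such genes, and all 52 were found among the 23228 gene symbols counted in U87 MG cells. U87 MG is an established glioblastoma cell line grown in serum. The cells were transfected with oligofectamine and either a control siRNA or an siRNA against PELP1, a nuclear scaffold protein, and total RNA was taken 72 hours later. Each group held 2 libraries, read as single-end reads of 50 bases. All libraries came from this 1 line, a transient knockdown was used in place of a mutant, and no siRNA sequence was used here.

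Entry into mitosis depends on the kinase CDK1 bound to cyclin B, which the CDC25 phosphatases switch on and the WEE1 kinase holds back. Kinetochores then join chromosomes to spindle microtubules, and the spindle checkpoint delays anaphase until every chromosome is attached. The anaphase-promoting complex with CDC20 finally marks cyclin B and securin for destruction, and the midzone and contractile ring divide the cell. Transcripts of most of these genes rise together in the G2 phase and fall after division, under B-MYB with the MuvB complex, under FOXM1, and under the DREAM repressor complex, so their level in bulk RNA also follows how many cells of a culture are cycling. In bulk RNA, fewer cycling cells and less of each transcript per cell cannot be told apart.

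The libraries held between 18670162 and 22858988 reads counted in genes. PELP1 itself held 74.0 and 78.1 CPM (counts scaled to a common library size with TMM factors) in control libraries 1 and 2 and 15.2 and 17.7 CPM in PELP1 siRNA libraries 1 and 2, a log2 change of -2.21 (SE 0.097, adjusted p = 8.32e-14). The 2 PELP1 siRNA libraries differed more from each other than the 2 control libraries did, with a chi-square per gene of 7.07 against 2.09. Of 11 markers of glioma and astrocytic cells, 7 exceeded 1 CPM in a library, led by VIM and CD44, while AQP4 and ALDH1L1 held no count and GFAP averaged 1.37 CPM in control and 1.53 CPM in silenced cells. Of these markers VIM, CD44 and NES fell by 0.28, 0.32 and 0.51 on the log2 scale, and SOX9 and SLC1A3 rose by 0.58 and 0.49 (adjusted p from 4.91e-05 to 0.000873). The summed immune markers ran from 403 to 449 CPM, nearly all of it CD68 (means of 424 and 404 CPM) and CSF1R (20.7 and 17.9 CPM), while PTPRC averaged 0.0704 and 0.0517 CPM and CD3E and AIF1 held no count. Neuronal markers summed to 57.8 to 78.2 CPM, with SNAP25 falling by 0.63 on the log2 scale (adjusted p = 9.03e-06). Summed endothelial markers ran from 10.9 to 15.3 CPM and epithelial markers from 1.03 to 1.73 CPM, and their part in the results was not tested. Nothing in the labels says that duplicates came from separate cultures, so the p-values cover no more than the spread among these 4 samples, and that spread may be technical.

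After silencing of PELP1, 42 of the 52 mitotic transcripts had a fitted change under 20% either way. Among the 42 are PLK1, NDC80, NUSAP1 and DLGAP5, which passed the test used below. The median absolute log2 change was 0.137 in these 52, 0.153 in tested genes averaging at least 10 CPM and 0.179 in all genes tested. B-MYB (MYBL2), the kinetochore subunit SPC24, the phosphatase CDC25C, survivin (BIRC5) and cyclin B2 (CCNB2) showed the largest rises. The CDK-binding subunit CKS1B, the kinesin KIF20A and the kinase PLK1 fell. All 52 genes passed the filter on low counts. At an adjusted p under 0.05 in the quasi-likelihood test, 11 rose, 3 fell and 38 were not called. The 14 called genes make up 26.9% of the 52, against 27.9% of the 13234 genes tested, so the share that changed was close to that of genes in general. All 52 averaged at least 10 CPM, and 32.2% of the 9500 tested genes at that level were called, 15.0% higher and 17.2% lower. By direction, 21.2% were higher and 5.77% lower, against 12.9% and 15.0% of all genes tested. The median log2 fold change was 0.10 over the 52 genes and 8.8e-04 over all genes tested, and it lay between -0.74 and 0.69 for single members. The fitted change was above 0 in 38 of the 52 (73.1%), against 50.1% of all genes tested.

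The 2 groups did not overlap in 35 of the 52 genes (67.3%), against 64.2% of the genes tested. In 27 of them (51.9%) the PELP1 siRNA libraries were above, against 32.0% of the genes tested, and in 8 (15.4%) below them, against 32.3%. These counts rest on small differences, and 4 of the 52 members differed by more than 0.5 on the log2 scale: MYBL2, SPC24, CKS1B and KIF20A. So did 737 of the 9500 tested genes averaging at least 10 CPM, and 1776 of all 13234 genes tested. Scaling by total counts alone raised the fitted changes of all genes by 0.048 at the median and gave 18 members higher and 3 lower. In that scaling 41.3% of all called genes were lower, against 53.6% with TMM factors. With control library 1 or 2 left out, the median log2 fold change of the members was 0.106 or 0.089. With PELP1 siRNA library 1 or 2 left out, it was 0.067 or 0.146. Over all genes of the main fit, the medians in these fits lay between 0.0017 and 0.0043. Each of these fits borrows the spread of its single library from the opposite group.

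**Figure D1:**
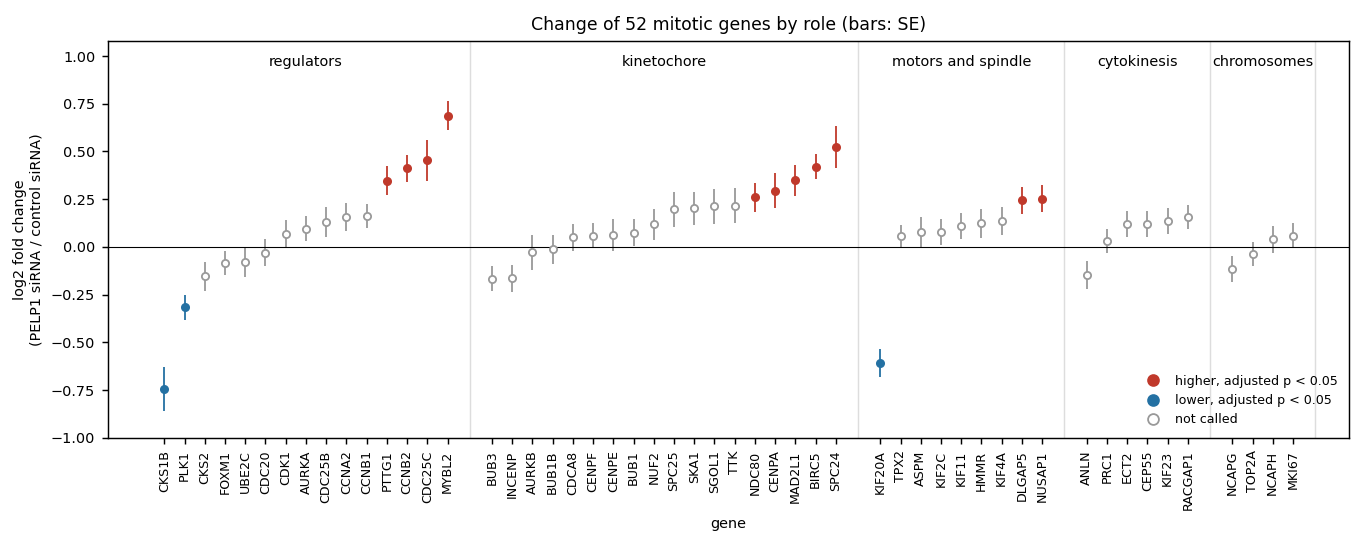
Each point is the log2 fold change of 1 gene, PELP1 siRNA over control siRNA, with its standard error, for the 52 mitotic genes in 5 role groups. Filled points passed the test (11 higher in red, 3 lower in blue), and the open points lie between -0.17 and 0.22.

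Promoters are shown for 2 members that rose and for the 3 that fell, because genes of this programme share 2 kinds of promoter word, the CHR element (here TTTGAA or TTCGAA) bound by MuvB complexes and the CCAAT box bound by NF-Y. Capitals mark these words and the E2F-type word GGCGGGA, searched on both strands, in RefSeq sequences (GRCh38.p14 table) that run from 250 bases before to 50 after the transcript start and were placed on GRCh37 by exact match.
MYBL2 (GRCh37 chr20:42295504-42295803, plus strand): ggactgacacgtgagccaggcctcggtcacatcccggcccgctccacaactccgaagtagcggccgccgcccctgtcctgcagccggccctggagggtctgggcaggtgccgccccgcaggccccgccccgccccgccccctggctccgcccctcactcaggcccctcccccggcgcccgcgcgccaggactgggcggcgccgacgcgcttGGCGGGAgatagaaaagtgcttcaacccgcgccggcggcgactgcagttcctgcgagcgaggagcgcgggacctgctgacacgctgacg
CCNB2 (GRCh37 chr15:59397095-59397394, plus strand): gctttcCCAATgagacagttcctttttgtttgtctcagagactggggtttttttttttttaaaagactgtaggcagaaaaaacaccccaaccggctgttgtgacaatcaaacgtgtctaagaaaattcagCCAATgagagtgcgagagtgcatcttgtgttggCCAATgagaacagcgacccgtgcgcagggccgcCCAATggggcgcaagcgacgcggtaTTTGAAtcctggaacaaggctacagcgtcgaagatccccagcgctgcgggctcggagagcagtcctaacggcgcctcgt
PLK1 (GRCh37 chr16:23689960-23690259, plus strand): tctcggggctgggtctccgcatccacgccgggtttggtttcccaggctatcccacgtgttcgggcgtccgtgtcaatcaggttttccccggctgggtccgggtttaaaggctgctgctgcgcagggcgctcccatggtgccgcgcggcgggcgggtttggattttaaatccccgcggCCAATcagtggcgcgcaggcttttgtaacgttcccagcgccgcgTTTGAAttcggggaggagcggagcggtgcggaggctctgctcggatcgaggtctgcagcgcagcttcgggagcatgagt
CKS1B (GRCh37 chr1:154946907-154947206, plus strand): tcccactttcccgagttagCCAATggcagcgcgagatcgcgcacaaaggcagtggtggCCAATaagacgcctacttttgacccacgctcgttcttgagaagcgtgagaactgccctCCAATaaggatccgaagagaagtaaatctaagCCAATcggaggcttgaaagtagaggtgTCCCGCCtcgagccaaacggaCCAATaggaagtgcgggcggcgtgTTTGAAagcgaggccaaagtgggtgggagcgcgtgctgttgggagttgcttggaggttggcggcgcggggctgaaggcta
KIF20A (GRCh37 chr5:137514551-137514850, plus strand): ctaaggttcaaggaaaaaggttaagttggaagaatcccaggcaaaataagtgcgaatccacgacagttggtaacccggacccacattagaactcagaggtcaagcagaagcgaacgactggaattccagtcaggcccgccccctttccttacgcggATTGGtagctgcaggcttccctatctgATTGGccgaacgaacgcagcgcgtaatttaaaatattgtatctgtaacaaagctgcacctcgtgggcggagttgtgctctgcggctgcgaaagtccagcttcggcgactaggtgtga

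Promoter sequences were matched for 44 of the 52 members, and 6 of the 52 had a second entry, of which the first was used. A CHR word stood in 32 of the 44 (72.7%), against 11.2% of 9161 promoters of tested genes of the same length. A CCAAT box stood in 33 (75%, against 36.96%) and GGCGGGA in 15 (34.1%, against 25.3%). In 27 promoters (61.4%) a CHR word began between 50 bases before and 44 after the start, against 3.20% of promoters of tested genes, and 2 occurrences in the 44 promoters overlapped one of a different word. CCNB2 and PLK1, which went in opposite directions, both carry a CHR word 29 bases before the start and at least 1 CCAAT box further upstream. CKS1B has 5 CCAAT boxes, GGCGGGA and a CHR word 30 bases before the start. KIF20A has 2 CCAAT boxes and no CHR word of these letters, and MYBL2 has only GGCGGGA, 39 bases before the start. A CHR word was present in 6 of 10 promoters of members that rose, 2 of 3 of those that fell and 24 of 31 of those not called. A match describes letters and is not a measured binding site.

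**Figure D2:**
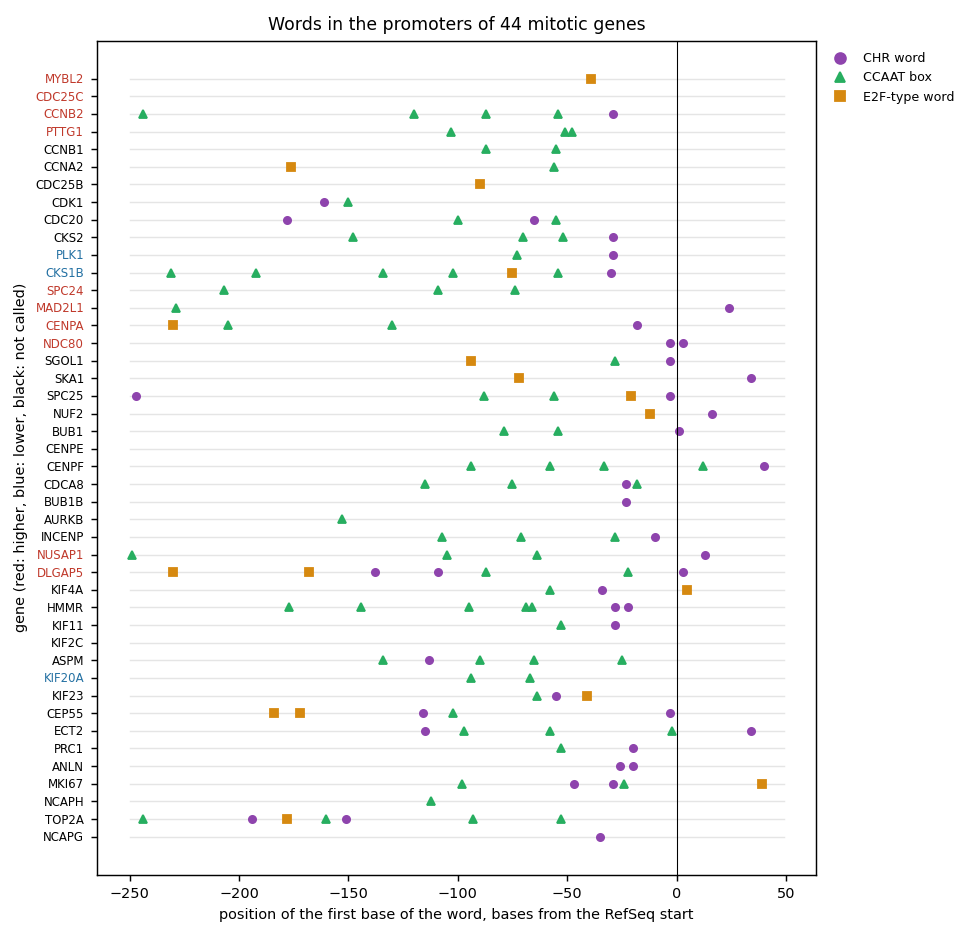
Each row is the promoter of 1 of 44 mitotic genes and each mark the first base of a word, in bases from the RefSeq start (0). CHR words (circles) lie near the start in most rows and CCAAT boxes (triangles) mostly upstream of it, in rows of genes that rose (red labels), fell (blue) and were not called (black).

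Among the 15 regulators, 4 rose, 2 fell and 9 were not called, with a median log2 fold change of 0.10. These are 26.7% higher and 13.3% lower, against 12.9% and 15.0% of all genes tested. MYBL2 encodes B-MYB, the transcription factor that joins MuvB to switch on G2 and mitotic genes. Its level was 83.0 and 89.7 CPM in the control libraries and 131 and 147 CPM in the PELP1 siRNA libraries. The groups did not overlap, and the rise was 1.61-fold (log2 0.69, SE 0.075, adjusted p = 2.99e-07). MYBL2 (GRCh37 chromosome 20, 42295659 to 42345135, plus strand) was called in each of the 13 alternative fits. FOXM1, the partner factor that acts later in G2, showed no such rise: its control values of 250.2 and 251 CPM were followed by 230.4 and 243 CPM after silencing (log2 -0.08, adjusted p = 0.349). The 2 PELP1 siRNA values lay below both control values by a margin smaller than their own difference.

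Of the cyclins, CCNB2 rose and CCNB1 and CCNA2 were not called. Cyclin B2 transcript stood at 78.0 and 80.1 CPM in the control libraries and at 105 CPM in each PELP1 siRNA library, a rise of 32.9% (log2 0.41, SE 0.072, adjusted p = 0.000139). CCNB1, the main cyclin B of mitotic entry, measured 269.8 and 291 CPM in control and 312 and 316 CPM in silenced cells (log2 0.16, adjusted p = 0.0643). CCNB1 passed the test with upper-quartile scaling, with total counts alone and without either PELP1 siRNA library. CDK1, the kinase that both cyclins activate, measured 142 and 146 CPM in control and 158 and 145 CPM in silenced cells, so that the groups overlapped (log2 0.07, adjusted p = 0.482). The S and G2 cyclin CCNA2 showed a log2 change of 0.16 (adjusted p = 0.109).

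CDC25C, one of the phosphatases that activate CDK1, rose from 15.6 and 14.7 CPM to 20.002 and 21.5 CPM (log2 0.45, SE 0.11, adjusted p = 0.00247). Its adjusted p was 0.0938 without control library 2, and 8.80% of its exon bases are shared with FAM53C on the opposite strand. The related CDC25B was not called, with 78.3 and 72.4 CPM against 78.1 and 86.99 CPM (log2 0.13, adjusted p = 0.225). PTTG1 encodes securin, the inhibitor of separase that is destroyed at anaphase. It rose from 97.6 and 106.1 CPM to 120.2 and 139 CPM (log2 0.35, SE 0.078, adjusted p = 0.00160). Without control library 1 the adjusted p of PTTG1 was 0.137.

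CKS1B and CKS2 encode small proteins that bind CDK1, and only the transcript of CKS1B passed the test. CKS1B fell from 18.2 and 19.1 CPM to 10.46 and 11.8 CPM, a drop of 40.3% (log2 -0.74, SE 0.12, adjusted p = 3.25e-05). The value rests on 206 to 428 counts per library. As much as 86.0% of the 50-base windows of the CKS1B mRNA also occur elsewhere in GRCh37, where 7 CKS1B pseudogenes are annotated, so most of its reads cannot be placed uniquely and its count is uncertain. CKS2 stood at 88.4 and 92.9 CPM and then at 77.9 and 85.0 CPM (log2 -0.15, adjusted p = 0.131), with 16.2% of its windows found elsewhere. The difference between CKS1B and CKS2 was not tested.

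PLK1, the polo-like kinase of spindle assembly and mitotic entry, was the other regulator that fell. Its level was 180.7 and 180.9 CPM in the control libraries and 144 and 146 CPM in the PELP1 siRNA libraries, a drop of 19.7% (log2 -0.32, SE 0.065, adjusted p = 0.000740). The groups did not overlap, as in 64.2% of all genes tested. Their SDs of 0.178 and 1.30 CPM each rest on 2 libraries, too few to measure the spread. With only 1 control library the adjusted p of PLK1 was 0.0677 or 0.0664, with log2 fold changes of -0.32 in each case. Exon sharing with ERN2 and another gene on the opposite strand covers 12.8% of its exon bases. AURKA, the kinase that activates PLK1 at centrosomes, measured 182 and 195 CPM and then 205 and 199 CPM (log2 0.10, adjusted p = 0.296). CDC20, the activator of the anaphase-promoting complex (log2 -0.03), and UBE2C, its ubiquitin-conjugating enzyme (log2 -0.08), were not called either, with adjusted p of 0.791 and 0.458. CDC20 turned to 0.02 with total counts alone and 0.06 without PELP1 siRNA library 1, and UBE2C to 0.0074 without that library.

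**Figure D3:**
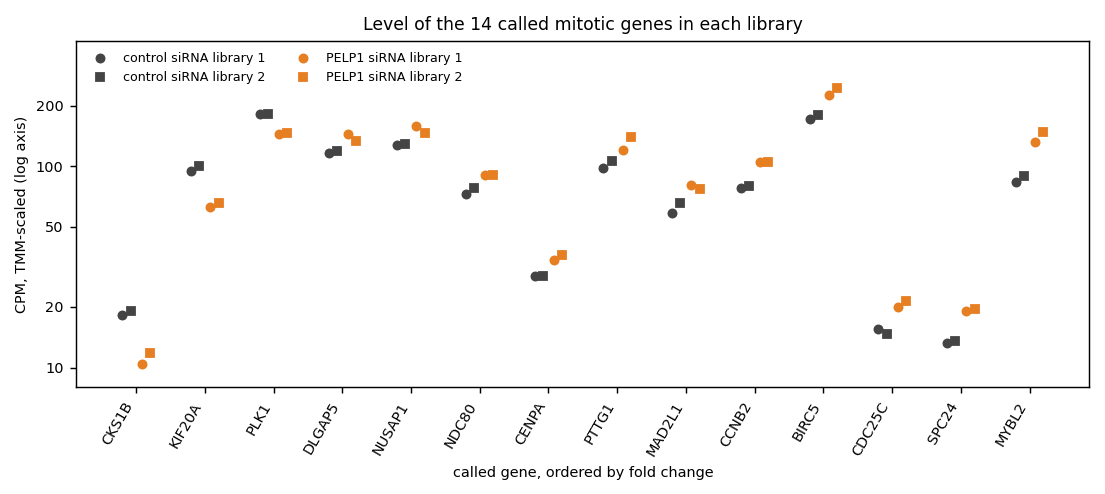
CPM (log axis) of the 14 called genes in each of the 4 libraries, ordered by fold change from CKS1B to MYBL2. In each gene the 2 PELP1 siRNA libraries (orange) lie on one side of the 2 control libraries (dark), by a wide gap for KIF20A and MYBL2 and a narrow one for DLGAP5 and NDC80.

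Of the 18 kinetochore, checkpoint and passenger genes, 5 rose, 0 fell and 13 were not called by the quasi-likelihood test. These are 27.8% higher and 0% lower, against 12.9% and 15.0% of all genes tested. The median log2 fold change was 0.16. None of these 18 had a log2 change below -0.17. The lowest, the checkpoint protein BUB3 (log2 -0.17, adjusted p = 0.0563), passed the test as lower in 4 of the 13 alternative fits. BIRC5 (survivin), the passenger complex subunit that docks on centromeres, rose from 172 and 180.5 CPM to 226 and 246 CPM (log2 0.42, SE 0.067, adjusted p = 4.48e-05). The rest of the passenger complex did not pass the test. AURKB, its kinase, stood at 44.7 and 49.6 CPM and then 42.9 and 49.7 CPM (log2 -0.03, adjusted p = 0.852), with full overlap of the groups, and turned to 0.02 with total counts alone, 0.05 without control library 2 and 0.08 without PELP1 siRNA library 1. The scaffold INCENP showed a log2 change of -0.16 (adjusted p = 0.0944) and borealin (CDCA8) one of 0.05 (adjusted p = 0.634).

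The NDC80 complex is the microtubule-binding rod of the kinetochore and has 4 subunits, all of them members. SPC24 rose from 13.2 and 13.6 CPM to 19.1 and 19.4 CPM (log2 0.52, SE 0.11, adjusted p = 0.000762). NDC80 rose from 72.5 and 78.3 CPM to 90.6 and 89.99 CPM (log2 0.26, SE 0.075, adjusted p = 0.0116). SPC25 (log2 0.20, adjusted p = 0.120) and NUF2 (0.12, adjusted p = 0.290) were not called. All 4 subunits had higher values in both PELP1 siRNA libraries than in either control library. The same held for 51.9% of the 52 members and 32.0% of all genes tested. Without control library 1 or 2 the adjusted p of NDC80 was 0.379 or 0.112, and SPC24 stayed called in each of the 13 alternative fits. SKA1, of the complex that holds kinetochores to shrinking microtubules, was at 41.2 and 41.1 CPM and then 48.5 and 46.1 CPM (log2 0.20, adjusted p = 0.0822).

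MAD2L1 (MAD2), the checkpoint protein that sequesters CDC20, rose from 58.3 and 65.7 CPM to 80.5 and 77.5 CPM (log2 0.35, SE 0.080, adjusted p = 0.00210), and its adjusted p was 0.233 without control library 1. The checkpoint kinases TTK (log2 0.22, adjusted p = 0.0837) and BUB1 (0.07, adjusted p = 0.461) and the pseudokinase BUB1B (-0.01, adjusted p = 0.913) were not called. SGOL1, the shugoshin that protects centromeric cohesion, showed a log2 change of 0.21 (adjusted p = 0.0867). CENPA, the histone H3 variant that marks centromeres, rose from 28.5 and 28.7 CPM to 34.1 and 36.1 CPM (log2 0.29, SE 0.092, adjusted p = 0.0183). Its adjusted p was 0.0668 with DESeq2 and 0.248 or 0.223 with only 1 control library. The kinetochore motor CENPE (log2 0.06, adjusted p = 0.607) and the large coat protein CENPF (0.06, adjusted p = 0.535) were not called, and CENPE turned to -0.10 without PELP1 siRNA library 1.

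Among the 9 motor and spindle genes, 2 rose, 1 fell and 6 were not called, with a median log2 fold change of 0.11. These are 22.2% higher and 11.1% lower, against 12.9% and 15.0% of all genes tested. KIF20A, a kinesin of the central spindle, fell from 95.2 and 100.5 CPM to 63.0 and 65.4 CPM, a drop of 34.4% (log2 -0.61, SE 0.075, adjusted p = 1.64e-06), and was called in each of the 13 alternative fits. Its gene (GRCh37 chromosome 5, 137514408 to 137523412, plus strand) shares 5.35% of its exon bases with BRD8 and CDC23 on the opposite strand. CDC23, a subunit of the anaphase-promoting complex, went the other way, from 67.1 and 67.9 CPM to 93.3 and 85.7 CPM (log2 0.41, adjusted p = 0.000293). NUSAP1, which bundles spindle microtubules, rose from 128 and 129 CPM to 159 and 147 CPM (log2 0.25, SE 0.069, adjusted p = 0.00749). DLGAP5, which stabilises kinetochore fibres, rose from 117 and 119 CPM to 145 and 134 CPM (log2 0.24, SE 0.070, adjusted p = 0.0111). With only 1 control library the adjusted p was 0.218 or 0.176 for NUSAP1 and 0.270 or 0.188 for DLGAP5. The annotation used here places 86.8% of the exon bases of NUSAP1 within other genes of the same strand.

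The spindle motor KIF11 (log2 0.11), the microtubule depolymerase KIF2C (0.08), the chromokinesin KIF4A (0.14), the AURKA activator TPX2 (0.06), the spindle pole protein ASPM (0.08) and the hyaluronan-mediated motility receptor HMMR (0.12) were not called. Their adjusted p ran from 0.185 for KIF4A to 0.529 for TPX2. TPX2 was the most abundant of these 6 in CPM, with 381 and 394 CPM in the control libraries and 402 and 404 CPM in the PELP1 siRNA libraries. Of the 6, ASPM turned to -0.01 without control library 2 and to -0.05 without PELP1 siRNA library 1.

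None of the 6 genes grouped under cytokinesis and none of the 4 chromosome structure genes passed the quasi-likelihood test, which 27.9% of all genes tested passed. In that test 1 and 0 of them had an unadjusted p under 0.05. The central spindle kinesin KIF20A, which fell (log2 -0.61), was grouped with the motors and is not among the 6. DESeq2 called 0 of the 10, while total-count scaling called KIF23 and RACGAP1 higher. Leaving out PELP1 siRNA library 1 called RACGAP1 higher and ANLN and NCAPG lower, and leaving out library 2 called KIF23, ECT2, RACGAP1 and CEP55 higher. RACGAP1, the GTPase-activating subunit of the centralspindlin complex, came closest with 169 and 172 CPM against 192 and 189 CPM (log2 0.16, adjusted p = 0.0723), and its kinesin partner KIF23 showed a log2 change of 0.14 (adjusted p = 0.138). ECT2, an exchange factor needed for cleavage (0.12), the abscission protein CEP55 (0.12) and the midzone bundler PRC1 (0.03) had adjusted p of 0.203, 0.208 and 0.741. ANLN, the anillin scaffold of the contractile ring, measured 344 and 348 CPM with control siRNA but 345 and 281 CPM with PELP1 siRNA (log2 -0.15, adjusted p = 0.151), so that 1 library set the difference. The proliferation marker MKI67 measured 449 and 397 CPM and then 444 and 437 CPM (log2 0.06, adjusted p = 0.539), with the control libraries on either side of the PELP1 siRNA ones. MKI67 turned to -0.03 without control library 2. Topoisomerase TOP2A showed a log2 change of -0.04 (adjusted p = 0.689), and the condensin subunits NCAPG and NCAPH had -0.12 and 0.04 (adjusted p = 0.223 and 0.720).

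Summed over the 52 genes, the level was 7285 and 7358 CPM in the control libraries and 7803 and 7528 CPM in the PELP1 siRNA libraries, a mean 4.69% higher. The sums of the regulators and of the kinetochore genes were 6.02% and 7.37% higher and that of the cytokinesis genes 2.99% higher, while that of the chromosome structure genes was 0.297% lower. For the cytokinesis genes, PELP1 siRNA library 2, at 1265 CPM, lay below both control libraries at 1278 and 1311 CPM, and library 1 at 1401 CPM lay above them. For the regulators, kinetochore genes and spindle genes, both PELP1 siRNA sums lay above both control sums.

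Per kilobase of mRNA, the most abundant members in control cells were CKS2 (147 CPM per kb), PTTG1 (142), CCNB1 (138), UBE2C (133) and TPX2 (112). The least abundant were SPC24 (5.86), CDC25C (7.24) and SGOL1 (10.8). Of the 5 most abundant only PTTG1 was called, and both SPC24 and CDC25C, the least abundant members, were among the 4 largest rises. These levels divide by the length of 1 annotated mRNA per gene, and reads that fit several places are missing from them.

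Among the members, the difference between duplicate libraries varied with transcript length. PELP1 siRNA library 2 lay below library 1 in 16 of the 17 longest mRNAs (3660 bases and longer) and in 5 of the 17 shortest (2263 bases and shorter), a split made after the values were seen. CENPE had 169 and 136 CPM in the 2 PELP1 siRNA libraries and ASPM had 177 and 149 CPM, while AURKB, of short mRNA, had 42.9 and 49.7 CPM. Across the 52 genes the log2 ratio of PELP1 siRNA library 2 to 1 had a Pearson correlation of -0.60 and a Spearman correlation of -0.55 with log2 mRNA length, and the control pair had -0.54 and -0.44. These describe genes within the same libraries, which are not independent. The log2 fold change between groups had a Pearson correlation of 0.0051 and a Spearman correlation of -0.23 with length. The part of transcript length in the calls was not tested.

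**Figure D4:**
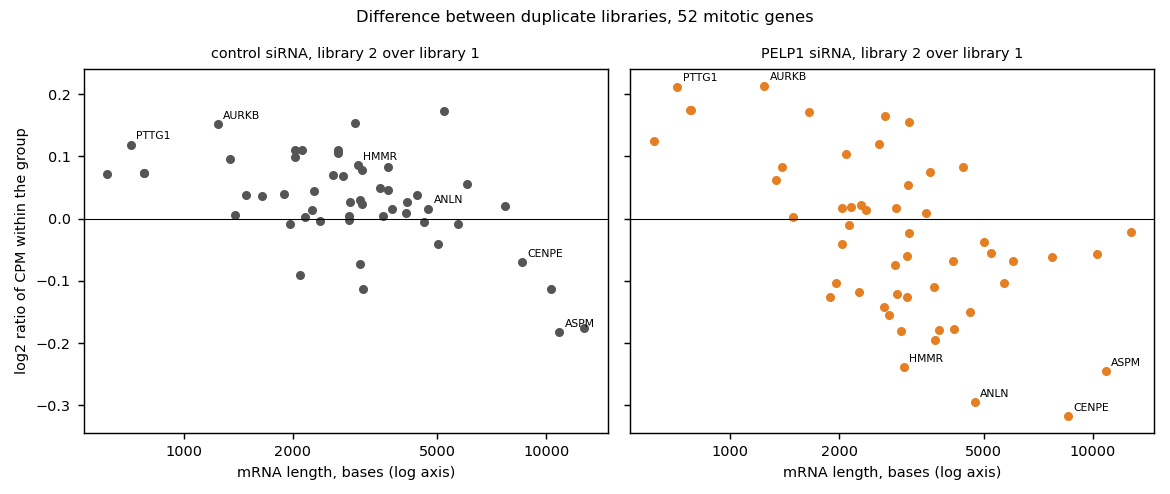
Log2 ratio of library 2 to library 1 within each group for the 52 mitotic genes, against mRNA length in bases (log axis). In the PELP1 siRNA pair (right) the mRNAs of CENPE, ANLN and ASPM lie lowest, down to -0.32, and short ones such as PTTG1 and AURKB highest, up to 0.21. Not all long mRNAs lie low: MKI67, the longest, is at -0.022 and CENPF at -0.056.

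Other genes of mitosis, from lists drawn up by function, numbered 136, and all were tested. Of these, 33 rose (24.3%), 12 fell (8.82%) and 91 were not called, with a median log2 fold change of 0.08. The called share was 33.1%, against 27.9% of all genes tested and 32.2% of those averaging at least 10 CPM. By direction, 12.9% of all genes tested rose and 15.0% fell, the shares to set beside each list below. The inner kinetochore, the protein layer that sits on CENPA chromatin, held 7 rises and 2 falls among 20 genes. OIP5, a factor that loads CENPA, rose from 11.9 and 12.8 CPM to 19.0 and 19.4 CPM (log2 0.64, adjusted p = 0.000117) and overlaps NUSAP1 on the opposite strand. ITGB3BP, known as CENP-R, rose by 0.50 (adjusted p = 0.000177), and CENPN and CENPT, which anchor the layer to CENPA and to NDC80, fell by 0.33 and 0.47 on the log2 scale (adjusted p = 0.00122 and 0.00140). In the other outer kinetochore and checkpoint genes, 5 of 19 rose and 1 fell. CCDC99 (Spindly) rose by 0.39 and the MIS12 complex subunit NSL1 by 0.41 (adjusted p = 0.000231 and 0.000581), and KNTC1, the ROD subunit of the complex that recruits dynein, fell by 0.26 (adjusted p = 0.0303).

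Among 21 other genes of mitotic entry, 7 rose and 2 fell (33.3% and 9.52%, against 12.9% and 15.0% of all genes tested). CCNF, a cyclin of an SCF ubiquitin ligase, rose by 0.40 (adjusted p = 0.00187) and the phosphatase CDC25A by 0.34 (adjusted p = 0.00242). WEE1, which holds CDK1 back, also rose, by 0.37 (adjusted p = 0.00419). ARPP19, a small inhibitor of the phosphatase that opposes CDK1, fell from 251 and 259 CPM to 157 and 142 CPM (log2 -0.77, adjusted p = 9.85e-09), and the ubiquitin ligase G2E3 fell by 0.32 (adjusted p = 0.0278). Of 18 genes of the anaphase-promoting complex and separase, 3 rose and 2 fell: ANAPC16 rose by 0.26 (adjusted p = 0.0123) beside CDC23, while separase (ESPL1) fell from 78.1 and 77.0 CPM to 58.7 and 63.9 CPM (log2 -0.34, adjusted p = 0.00206) as its inhibitor PTTG1 rose. The subunit CDC16 fell by 0.20 (adjusted p = 0.0387).

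Of 30 other motor and spindle genes, 7 rose and 2 fell (23.3% and 6.67%, against 12.9% and 15.0% of all genes tested). The microtubule destabiliser STMN1 rose from 344 and 349.6 CPM to 434 and 448 CPM (log2 0.35, adjusted p = 0.000152) and the spindle protein SPAG5 by 0.27 (adjusted p = 0.00239), while the kinesin KIF18B fell by 0.37 (adjusted p = 0.00422) and the pericentrin gene PCNT by 0.24 (adjusted p = 0.0311). Of 10 other cytokinesis genes, 2 rose and 1 fell. Among 18 genes of condensin, cohesin and chromatin, 2 rose and 2 fell, with a median of -0.04. The cohesin regulators PDS5B and PDS5A moved apart, by 0.29 and -0.30 (adjusted p = 0.0169 and 0.00136). The condensin II subunit NCAPH2 rose by 0.21 (adjusted p = 0.0442) and RCC1, the exchange factor for Ran, fell by 0.35 (adjusted p = 0.000504). Like those over all genes, the counts of rises and falls for the 136 genes changed with the library left out.

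**Figure D5:**
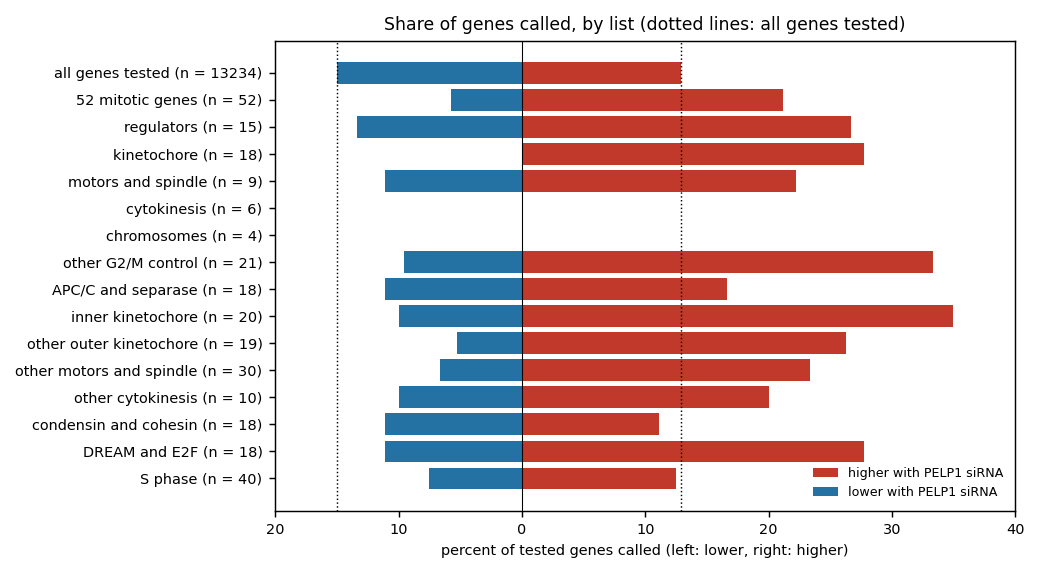
Percent of tested genes called higher (right, red) and lower (left, blue) with PELP1 siRNA, for the 52 mitotic genes, their role groups and other lists, with all genes tested at the top and as dotted lines. The 52 genes had 21.2% higher and 5.77% lower, and the inner kinetochore list reached 35.0% higher.

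Counting limits differ among the members. Of the 52, 11 have at least 5% of their 50-base mRNA windows at another place in GRCh37 (median of all 52, 1.34%), among them CKS1B, SPC25 (23.3%), CKS2, KIF4A (15.4%) and CDC20 (11.3%). SPC24 (8.57%), PTTG1 (6.46%) and MAD2L1 (5.33%), which rose, also belong to these 11. Another 11 share at least 5% of their exon bases with a different annotated gene, among them FOXM1 (15.9%, ITFG2 on the opposite strand) and NCAPG (33.7%, LCORL on the opposite strand). PRC1 shares 57.6% of its exon bases with a gene on the same strand, and CENPA, which rose, 7.08%. Whether the counting used strand is not stated. The 7-base words CTCAGTT and GCCTTGA, which an earlier look at these fold changes found to be common in 3' ends of fallen genes, stood in the 3' untranslated regions of 9 of the 52 members (17.3%), against 25.4% of 11049 tested genes. Of the 3 members that fell only CKS1B carries one, at 154951694 to 154951700 of GRCh37 chromosome 1, shown in capitals within 30 bases of the mRNA because it is the single case.
CKS1B: tcatgttaaaaGCCTTGAttaaagaggaag
PLK1 and KIF20A carry neither word. Of the 11 members that rose, CDC25C and MAD2L1 carry at least 1 of them. Since the words were picked on these same libraries, the counts support no direction.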

How the data were processed

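RNA-seq counts per gene symbol were analysed for 4 libraries, 2 with control siRNA and 2 with PELP1 siRNA. The values are raw read counts that the authors deposited. Per the submitters' processing notes, CASAVA 1.8.2, TopHat2 2.0.8b and HTSeq were used with hg19. Annotation release and strand setting are not stated there. The 5 summary lines below the genes took 36.0 to 37.6% of each library's total and entered no library size or test.

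From these counts, genes passing a minimum count of 10 (total 15) were fitted with edgeR 4.0.16 (TMM factors, robust quasi-likelihood test, R 4.3.3), with Benjamini-Hochberg adjustment over all 13234 genes tested and calls at 0.05. The biological coefficient of variation was 5.23%. Values with 2 libraries per group carry little information on error, and a count of 3 corresponds to 0.134 to 0.158 CPM. On simulated data of 13234 genes, the fit recovered 48%, 88%, 98% and 100% of genes changed 1.25, 1.5, 2 and 4-fold. There were 9 false calls among 176. Only 50 genes were changed at each fold, none of low count, whereas 27.9% of genes were called in the data. The rates in the data may therefore differ from these.

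All 52 members were described. CCNB1, CDK1, PLK1, AURKA, AURKB, FOXM1, MKI67 and the called members were given per library, and each other list contributed up to 2 called genes per direction, taken by lowest adjusted p. WEE1 was added to these after its value was seen. The called genes of the other cytokinesis list are not reported here by name. The members and lists were chosen with earlier results of these data known. Gene positions, exon sharing and repeated 50-base windows came from GENCODE release 44 mapped to GRCh37, and promoters from RefSeq. Alternatives were other scalings and filters, DESeq2 1.42.0, limma-voom (limma 3.58.1), a non-robust fit, a replicate block and leaving out each library.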

Additional observations from a re-analysis of the deposited data

How the results depend on the processing

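MYBL2, CCNB2, SPC24, BIRC5, KIF20A and CKS1B were called in the same direction under all 13 alternatives. Over all genes, DESeq2 gave 1131 rises in place of 1712, and leaving out 1 library gave 523 to 2724 rises and 943 to 2804 falls. For the 52 members, total-count scaling gave 18 rises, and leaving out 1 library gave 5 to 28 rises and 2 to 7 falls. For the 136 other genes of mitosis, total-count scaling and DESeq2 each gave 7 falls in place of 12, and leaving out 1 library gave 8 to 49 rises and 2 to 28 falls. The cause was not tested. With only 1 library in a group, fewer samples estimate the spread.

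Over all genes, deviations of same-numbered libraries had a correlation of -0.031. With 2 libraries per group this is a single value, and it does not decide whether same-numbered libraries share an effect. Among the members, the ratio of library 2 to 1 fell with mRNA length in both groups (Pearson -0.60 and -0.54). The replicate block gave 11 rises and 3 falls among members, 30 and 10 among the other genes of mitosis, and 1613 and 1968 over all genes.

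Fitted signs turned only in members that were not called, and the cause was not tested. With total-count scaling CDC20 was 0.018, BUB1B 0.034, AURKB 0.020 and TOP2A 0.010. Over the fits that leave out 1 library, the log2 fold change ran from -0.11 to 0.056 for CDC20, -0.17 to 0.0074 for UBE2C, -0.10 to 0.22 for CENPE, -0.015 to 0.17 for BUB1, -0.11 to 0.084 for BUB1B, -0.13 to 0.077 for AURKB, -0.047 to 0.20 for ASPM, -0.087 to 0.018 for TOP2A and -0.027 to 0.15 for MKI67.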

Other observations

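Of 18 genes of the DREAM and E2F network, 5 rose and 2 fell, and of 40 S-phase genes 5 rose and 3 fell, where 12.9% of all genes tested rose and 15.0% fell. E2F2, an activating E2F, rose from a mean of 13.8 to 23.5 CPM (log2 0.76, adjusted p = 7.04e-06) and E2F1 by 0.33 (adjusted p = 0.00228), while E2F3, also an activator, was not called (log2 -0.13, adjusted p = 0.372). The repressor E2F7 fell from 155 to 108 CPM (log2 -0.52, adjusted p = 6.02e-05), the related repressor E2F8 rose by 0.37 (adjusted p = 0.00424), and the pocket protein RBL1 fell by 0.23 on the log2 scale (adjusted p = 0.0494). E2F3 and E2F8 were added after their values were seen. Among the S-phase genes, the ribonucleotide reductase subunit RRM2 and the helicase subunit MCM6 rose by 0.31 and 0.29 (adjusted p = 0.000651 and 0.00155), whereas MCM4, of the same helicase, fell from 315 to 221 CPM (log2 -0.52, adjusted p = 1.58e-06), and UHRF1, which helps to copy DNA methylation, from 46.3 to 33.4 CPM (log2 -0.47, adjusted p = 0.000346).

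Of 7 CDK inhibitor genes, 3 could be tested. CDKN1A (p21) fell from 263 to 99.4 CPM (log2 -1.41, adjusted p = 3.06e-13) and CDKN1B (p27) rose from 50.7 to 73.2 CPM (log2 0.53, adjusted p = 1.93e-05).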
